A study of Mus musculus with 31 samples.

Results

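Skin treated for 12 weeks with the compound labelled jak1i was compared with skin of the same arm at week 0, in mice of the C3H/HeJ strain with established AA, taken to be alopecia areata, an immune attack on the hair follicle. The comparison used the arrays whose titles give that arm and those weeks, 6 of the 31 arrays of the study, 3 at each time, and all 18193 genes measured on them. The study applied PBS, jak1i or jak3i to the skin, with 3 arrays at 0, 6 and 12 weeks in every arm and 2 arrays at 24 weeks in each inhibitor arm. All groups are skin of the C3H/HeJ strain, which develops the disease on its own or after skin grafting, and no healthy skin is among the groups compared here. The compounds are given only by these codes, without a dose, and whether the same mice were sampled at successive weeks is not stated in the sources used here. The replicates are called biological by the series text, and p-values measure the spread between these samples.

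JAK1 is a tyrosine kinase bound to the receptors of the interferons and of the common γ-chain cytokines, among them IL-2 and IL-15. When a ligand binds, the kinase phosphorylates STAT proteins, which enter the nucleus and switch on genes such as those of the CXCR3 ligands and of MHC class I. In alopecia areata, CD8+ T cells that carry the receptor NKG2D gather around the hair bulb, and interferon-γ from these cells acts on the follicle.

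The values are log2 expression values, 1 per gene and array, and a difference is always 12 weeks minus 0 weeks of the jak1i arm unless another is named. A gene was called at a Benjamini-Hochberg adjusted p under 0.05 over all genes in limma, which borrows information on the spread across genes and here also across all 31 arrays. The epidermal keratins Krt5, Krt14 and Krt10 ranged over 13.08 to 13.74, 13.57 to 13.97 and 14.15 to 14.26 in the 6 arrays, the cornified envelope gene Lor over 13.68 to 13.93 and the dermal collagen Col1a1 over 9.30 to 10.87, all well above the array medians. The arrays correlated at 0.980 to 0.989 within 0 weeks and at 0.987 to 0.991 within 12 weeks, and no pair of the 31 arrays was identical. The first principal component of the 6 arrays held 69.4% of their variance and separated the times, with replicate 2 of both times nearest to the other side. Across the study, hair keratin genes varied widely between arrays of 1 group, as described further on.

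After 12 weeks, 2958 of 18193 genes (16.3%) were called, 1775 of them higher (9.76%) and 1183 lower (6.5%), while 5955 had an unadjusted p under 0.05. Among the called genes, 578 were higher and 386 lower by at least 1 on the log2 scale, a 2-fold step, and 110 and 114 by at least 2. The groups did not overlap in 7297 genes (40.1%), including 2918 of the 2958 called genes. The median difference over all genes was -0.04. The 15 largest falls among named genes were mostly products of cytotoxic lymphocytes, interferon-induced genes and keratinocyte stress genes. The 15 largest rises included genes of lipid and xenobiotic metabolism, fat cell products and single genes such as Krt24, an epidermal keratin, and Il22ra2, a soluble receptor that binds IL-22. The count depended on single arrays: it was 1168 and 1711 without replicates 1 and 3 of 12 weeks and 1411 without replicate 1 of 0 weeks. It was 539 with the hair covariate, the mean of the hair shaft keratin and keratin-associated protein lists added to the model, and 1501 with the muscle covariate, the mean of the skeletal muscle list. Both hair lists separated the 2 times. A call kept or lost with the hair covariate therefore does not show whether a change goes with the hair level or with the week.

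**Figure D1:**
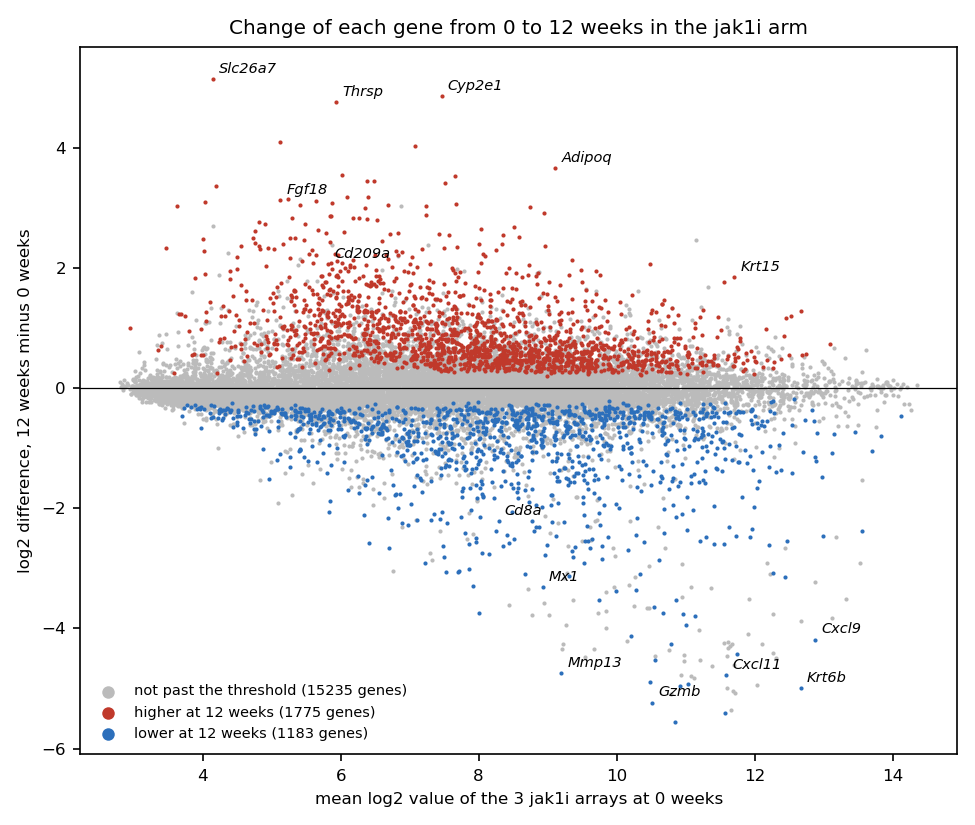
Log2 difference of every gene (vertical axis, 12 weeks minus 0 weeks of the jak1i arm, 3 arrays each) against its mean log2 value at 0 weeks (horizontal axis), with 1775 genes called higher in red, 1183 called lower in blue and the others in grey. The largest called falls lie among genes with high values at 0 weeks, such as Gzmb, Cxcl11 and Krt6b, and the largest called rises among genes with low to middle values, such as Slc26a7 and Thrsp.

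Genes of cytotoxic lymphocytes fell together. Of 20 measured members of this list, 14 fell and 0 rose, with a median of -1.47, against 6.5% of all genes that fell. The groups did not overlap in 17, against 40.1% of all genes. These shares, and the 9.76% of all genes that rose, are the background of every list count that follows. Gzmb, the protease granzyme B that kills target cells, stood at 10.71, 10.25 and 10.59 at 0 weeks in replicates 1, 2 and 3 and at 4.76, 6.18 and 4.91 at 12 weeks. It fell by 5.24 (SE 0.73, adjusted p = 0.000753), a 37.7-fold decrease. Replicate 2 held the highest value at 12 weeks, and still lay far below every array of 0 weeks. Gzma, granzyme A, went from 11.98, 11.35 and 9.79 to 5.60, 7.39 and 5.38 and fell by 4.92 (SE 0.71, adjusted p = 0.000753). Fasl, the death ligand that engages Fas on target cells, went from 6.54, 6.95 and 5.75 to 3.90, 3.97 and 3.67 and fell by 2.57 (SE 0.37, adjusted p = 0.000753). Prf1, the pore-forming perforin, moved less, from 7.24, 7.34 and 7.07 to 6.32, 6.62 and 6.45, and fell by 0.76 (SE 0.21, adjusted p = 0.0179), while its other probe set had the opposite sign and was not called.

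Several receptors and transcription factors of these cells fell as well. Klrk1, which encodes NKG2D, measured 7.11, 7.46 and 6.88 at 0 weeks and 5.72, 5.99 and 5.24 at 12 weeks and fell by 1.50 (SE 0.32, adjusted p = 0.00501). The inhibitory receptor subunits Klrc1 (NKG2A) and Klrd1 (CD94) fell by 3.29 (SE 0.44, adjusted p = 0.00063) and 2.22 (SE 0.40, adjusted p = 0.00248). Ifng, the cytokine interferon-γ, went from 7.07, 6.59 and 8.01 to 4.14, 4.50 and 4.30 and fell by 2.91 (SE 0.60, adjusted p = 0.00457), so that each 12-week array lay more than 2 below each 0-week array. Tbx21, the transcription factor T-bet that drives Ifng, fell by 1.46 (SE 0.32, adjusted p = 0.00603), whereas the related factor Eomes differed by -0.02 (SE 0.17, adjusted p = 0.953), and the receptors Klrg1, Klrc2 and Ncr1 were not called. In bulk skin, fewer cells of a type and less RNA per cell cannot be told apart. Leaving out 1 array ended the call of Prf1 (without 0-week replicate 1 or 2 or 12-week replicate 1 or 3, adjusted p up to 0.0803). With the hair covariate, 7 of the 20 list members were called lower, among them Gzmb, Gzma, Fasl, Klrc1, Klrd1 and Ifng.

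T cell genes showed 14 falls and 0 rises among 20 measured members, with a median of -1.04, against 6.5% of all genes that fell. Cd8a, the coreceptor chain of cytotoxic T cells, went from 8.29, 8.78 and 7.80 to 5.69, 6.41 and 6.13 and fell by 2.21 (SE 0.29, adjusted p = 0.00063), and its partner chain Cd8b1 fell by 2.81 (SE 0.38, adjusted p = 0.000646). Cd4, the coreceptor of helper T cells, measured 6.55, 6.76 and 6.55 and 6.50, 6.50 and 6.36, near the array medians at both times, and differed by -0.16 (SE 0.12, adjusted p = 0.36). The T cell receptor complex chains Cd3d, Cd3g and Cd3e fell by 1.44, 1.16 and 0.60, with adjusted p of 0.000753, 0.00703 and 0.014. Itgae, the integrin CD103 by which T cells hold on to epithelium, fell by 1.94 (SE 0.34, adjusted p = 0.00233), and Cxcr6, a chemokine receptor of tissue-resident T cells, by 2.23 (SE 0.39, adjusted p = 0.0021). The call depended on 1 array for Cd3e (without 0-week replicate 2 or 12-week replicate 1, adjusted p up to 0.0657). With the hair covariate, 11 members of the list were still called lower.

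Of 12 regulatory and checkpoint genes, 6 fell and 1 rose, against 6.5% and 9.76% of all genes. Pdcd1, the inhibitory receptor PD-1, fell by 1.31 (SE 0.26, adjusted p = 0.00358), and its ligands Cd274 and Pdcd1lg2 by 1.56 (SE 0.51, adjusted p = 0.0384) and 2.25 (SE 0.74, adjusted p = 0.0403). Foxp3, the lineage factor of regulatory T cells, measured 4.06, 4.13 and 4.42 at 0 weeks and 4.15, 4.01 and 4.13 at 12 weeks, close to the floor of the array, and differed by -0.11 (SE 0.14, adjusted p = 0.629). The gene that rose was Ikzf2, which encodes the transcription factor Helios (1.30, SE 0.34, adjusted p = 0.0129). With 1 array left out, the call was lost for Cd274 and Pdcd1lg2 (without 0-week replicate 1 or 3 or 12-week replicate 1 or 2 or 3, adjusted p up to 0.158 and 0.161) and Ikzf2 (without 12-week replicate 1, adjusted p = 0.0565). The number of falls was 3 without 0-week replicate 3 or without 12-week replicate 1 and 2 with the hair covariate.

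Chemokine genes showed 9 falls and 0 rises among 22, against 6.5% of all genes that fell. The 3 ligands of CXCR3, which draw activated T cells, were among the largest falls. Cxcl9 went from 13.00, 12.80 and 12.84 to 8.69, 10.70 and 6.68, Cxcl10 from 11.02, 10.36 and 11.49 to 7.11, 8.97 and 5.49 and Cxcl11 from 11.84, 11.16 and 11.75 to 6.19, 8.51 and 5.69. They fell by 4.19 (SE 1.07, adjusted p = 0.0124), 3.77 (SE 1.01, adjusted p = 0.0155) and 4.78 (SE 0.97, adjusted p = 0.00424), with no overlap of the groups. At 12 weeks replicate 2 kept the highest Cxcl9 level and replicate 3 the lowest by a wide margin. Ccl5, a chemokine that cytotoxic T cells themselves release, went from 10.89, 11.60 and 10.52 to 6.65, 7.82 and 6.69 and fell by 3.95 (SE 0.47, adjusted p = 0.000387), the smallest adjusted p of all genes. The monocyte chemokine Ccl2 fell by 2.64 (SE 0.73, adjusted p = 0.0182). Cxcl1 and Cxcl12, which act on neutrophils and on stem cells and lymphocytes, differed by -0.46 (SE 0.19, adjusted p = 0.0941) and 0.40 (SE 0.32, adjusted p = 0.396). Single arrays decided the call of Cxcl9 (without 12-week replicate 3, adjusted p = 0.0734), Cxcl10 (without 0-week replicate 1 or 3 or 12-week replicate 1 or 3, adjusted p up to 0.0843) and Ccl2 (without 0-week replicate 3 or 12-week replicate 3, adjusted p up to 0.0774). The falls numbered 5 without 0-week replicate 3 or without 12-week replicate 1, 4 without 12-week replicate 3 and 2 with the hair covariate.

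Interferon-induced genes were the groups with the highest shares of called members, as the plot of members past the threshold by list shows. Of 23 interferon-γ response genes, 18 fell and 0 rose (median -2.32), against 6.5% of all genes that fell. The groups did not overlap in any of the 23, against 40.1% of all genes without overlap. Ubd, a ubiquitin-like protein that marks others for breakdown, went from 11.97, 11.80 and 11.49 to 7.55, 9.49 and 4.92 and fell by 4.43 (SE 1.06, adjusted p = 0.00863). The guanylate-binding protein Gbp8 fell by 4.12 (SE 1.04, adjusted p = 0.011) and Gbp3 by 2.55 (SE 0.57, adjusted p = 0.00617), and the immunity-related GTPases Igtp and Irgm1 by 2.54 (SE 0.72, adjusted p = 0.02) and 2.47 (SE 0.51, adjusted p = 0.00452). Irf1, the transcription factor at the head of the interferon-γ response, went from 11.17, 11.10 and 11.49 to 9.99, 10.16 and 9.04 and fell by 1.52 (SE 0.38, adjusted p = 0.0112). Ido1, an enzyme that breaks down tryptophan, had the same direction without a call, at -1.49 (SE 0.64, adjusted p = 0.113). Leaving out 1 array ended the call of Ubd, Gbp8 and Irf1 (without 12-week replicate 3, adjusted p = 0.0573, 0.0662 and 0.0674) and Igtp (without 0-week replicate 1 or 3 or 12-week replicate 3, adjusted p up to 0.114). The falls numbered 11 without 0-week replicate 3, 7 without 12-week replicate 3 and 3 with the hair covariate, and the hair covariate kept the call for Irgm1 and Cxcl11 among the genes named.

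Type I interferon response genes showed 21 falls among 25 and 0 rises (median -1.89). Mx1, an antiviral GTPase, went from 8.90, 8.65 and 9.24 to 5.64, 5.73 and 5.50 and fell by 3.31 (SE 0.56, adjusted p = 0.00191). Oasl2, of the oligoadenylate synthetase family, went from 10.53, 9.91 and 10.40 to 6.88, 7.31 and 6.57 and fell by 3.36 (SE 0.60, adjusted p = 0.00231). Ifit1, which binds viral RNA, and Bst2, which tethers virions to the cell, fell by 3.09 (SE 0.55, adjusted p = 0.00236) and 2.84 (SE 0.47, adjusted p = 0.00168). The 3 arrays of 12 weeks lay close together for Mx1 and clear of all 0-week arrays. Irf7 and Stat2, transcription factors of the pathway, fell by 2.47 (SE 0.45, adjusted p = 0.00244) and 1.70 (SE 0.37, adjusted p = 0.00588). Leaving out any 1 of the 6 arrays left 19 to 21 falls in the list, and the hair covariate left 13, with Mx1, Oasl2, Ifit1, Bst2 and Irf7 still called among the genes named.

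**Figure D2:**
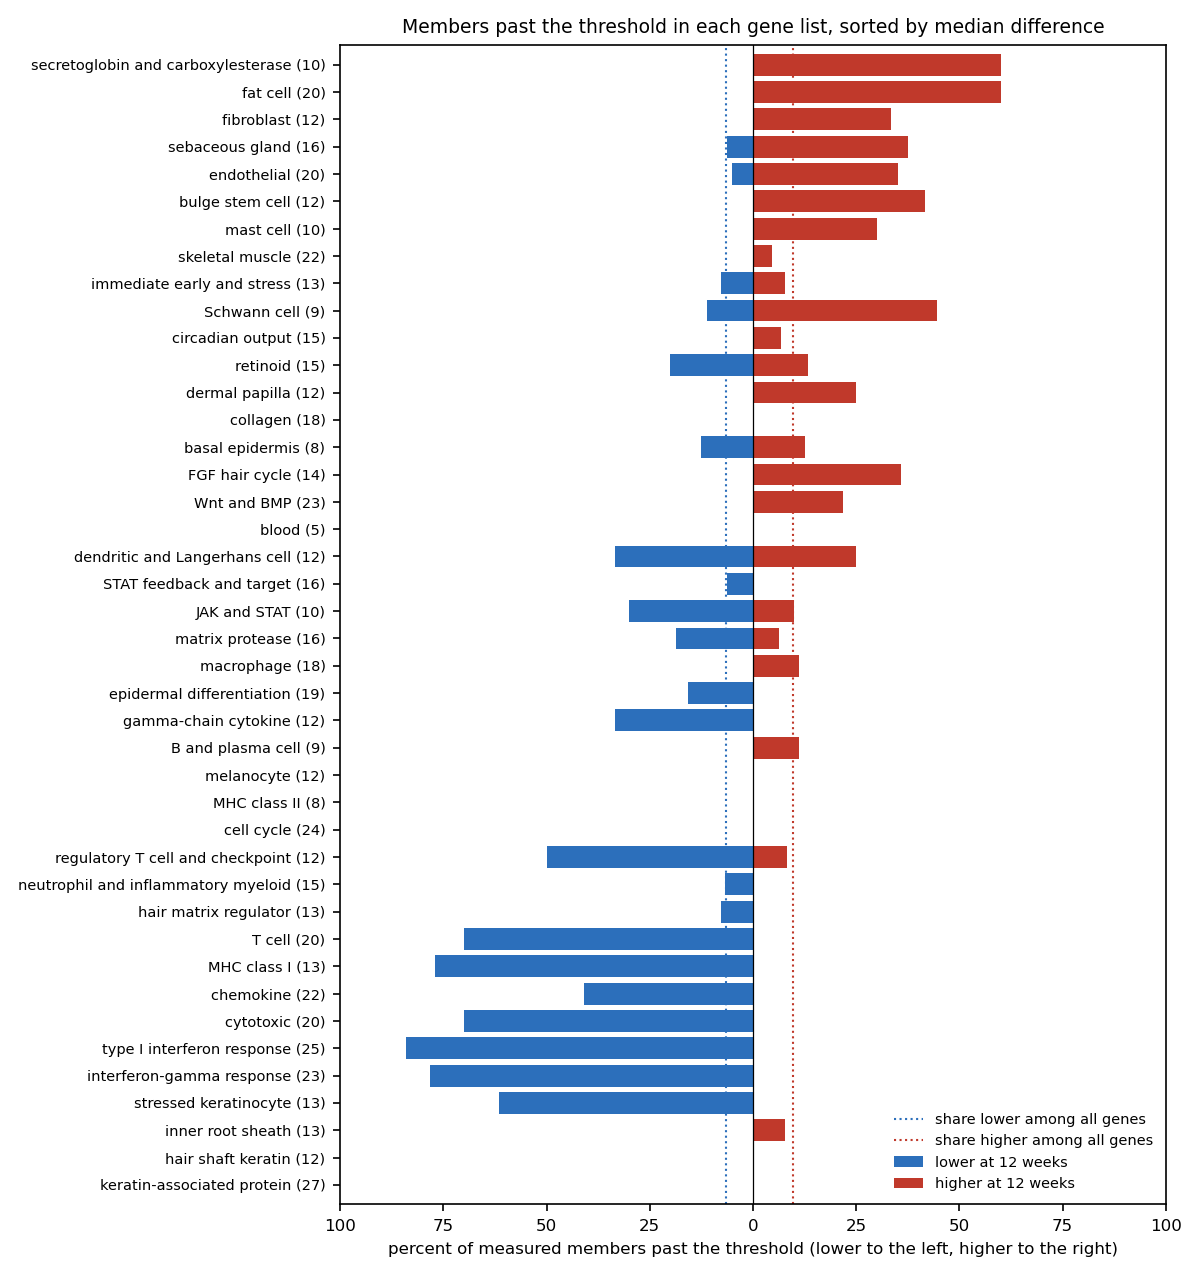
Percent of the measured members of each gene list (number in brackets) called lower (blue, to the left) and higher (red, to the right) from 0 to 12 weeks in the jak1i arm, with the shares of all genes, 6.5% and 9.76%, as dotted lines. Lists are sorted by median difference. The interferon, MHC class I, cytotoxic, T cell and stressed keratinocyte lists hold the largest shares of falls, and the hair shaft and keratin-associated protein lists, at the bottom, have no called member.

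The promoters of 4 of these genes are shown because they carry the letters by which the interferon-activated STAT complexes are known. The interferon-stimulated response element was searched as GAAANNGAAA and the interferon-γ-activated site as TTCNNNGAA, on both strands, in RefSeq promoter windows of 250 bases before to 50 bases after the start site (build GRCm38.p6). Capitals mark the matches in the 250 bases before the start site, printed 5′ to 3′ along the gene. The locations are chr5:92348890-92349139, minus strand for Cxcl10, chr19:34640639-34640888, plus strand for Ifit1, chr11:58199306-58199555, plus strand for Igtp and chr11:53769764-53770013, plus strand for Irf1.
Cxcl10: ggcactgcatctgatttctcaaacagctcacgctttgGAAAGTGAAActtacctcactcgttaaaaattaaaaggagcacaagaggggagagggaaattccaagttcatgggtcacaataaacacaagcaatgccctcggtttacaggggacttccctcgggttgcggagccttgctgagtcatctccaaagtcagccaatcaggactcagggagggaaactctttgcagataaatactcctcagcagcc
Ifit1: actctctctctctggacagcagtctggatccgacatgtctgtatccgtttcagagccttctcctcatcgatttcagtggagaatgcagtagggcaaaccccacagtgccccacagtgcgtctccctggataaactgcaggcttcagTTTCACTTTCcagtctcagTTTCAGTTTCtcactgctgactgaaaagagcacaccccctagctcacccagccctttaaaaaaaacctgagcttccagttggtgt
Igtp: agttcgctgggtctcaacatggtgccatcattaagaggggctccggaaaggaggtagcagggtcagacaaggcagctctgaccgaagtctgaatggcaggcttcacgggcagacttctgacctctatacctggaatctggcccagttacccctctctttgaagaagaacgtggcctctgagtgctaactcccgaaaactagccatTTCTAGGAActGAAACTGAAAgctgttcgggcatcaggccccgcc
Irf1: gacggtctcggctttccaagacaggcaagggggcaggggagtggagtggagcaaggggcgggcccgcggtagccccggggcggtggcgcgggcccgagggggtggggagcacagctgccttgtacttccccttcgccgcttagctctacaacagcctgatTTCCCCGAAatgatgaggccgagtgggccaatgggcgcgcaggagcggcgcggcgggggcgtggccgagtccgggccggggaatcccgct
The match in Cxcl10 begins 213 bases before the start site, and the 2 matches in Ifit1 begin at 104 and 85 bases before it. Igtp holds both motifs side by side, the activated site at 45 and the response element at 34 bases before the start. Irf1 holds an activated site at 90 bases in the window shown, and its other window held neither motif. The windows of Cxcl9, Ubd, Oasl2 and Irf7, which also fell, held neither motif. Of 27025 genes with a window, 3.99% held the response element and 9.55% the activated site. Of the 21 type I interferon genes that fell, 14 had a window, and 57.1% of these held the response element and 21.4% the activated site. Of the 18 interferon-γ genes that fell, 13 had a window, with 53.8% and 38.5%. Whole lists, called or not, had similar shares. The 17 type I members with a window had 52.9% and 23.5%, and 37.5% of the 16 interferon-γ members held the activated site. All 924 genes that fell and had a window had 7.9% and 10.5%, against 3.63% and 8.57% of the 14452 tested genes with a window. The shares of the fallen members thus describe their lists, and a link to the fall was not tested. A match describes letters in this window and no binding was measured.

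Genes that load peptides onto MHC class I showed 10 falls among 13 and 0 rises, against 6.5% of all genes that fell. Tap1, the transporter that brings peptides into the endoplasmic reticulum, fell by 1.63 (SE 0.27, adjusted p = 0.00168). When every probe set was tested on its own, 1 of the 4 Tap1 probe sets was called, and 0 had the opposite sign. Its partner Tap2 fell by 1.57 (SE 0.31, adjusted p = 0.00382), and the heavy chain H2-K1 by 1.12 (SE 0.29, adjusted p = 0.0139). The immunoproteasome subunit Psmb9 went from 11.95, 12.01 and 12.13 to 10.68, 10.61 and 9.85, without overlap, and fell by 1.65 (SE 0.36, adjusted p = 0.00562). B2m, the invariant light chain, measured 14.23, 14.10 and 14.19 and 13.94, 13.99 and 13.77, near the top of the array scale, and differed by -0.27 (SE 0.12, adjusted p = 0.132). The call depended on 1 array for H2-K1 (without 12-week replicate 3, adjusted p = 0.0764). With the hair covariate 6 members stayed called. The MHC class II list had 0 called members among 8 (median -0.55), with the β chain H2-Ab1 at -0.58 (SE 0.24, adjusted p = 0.101). In that list 3 members fell in a fit of the 6 compared arrays alone, 2 with dim genes left out and 1 with centring or without 0-week replicate 2.

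The receptors and kinases upstream of these genes held fewer calls. Of 12 γ-chain cytokine and receptor genes, 4 fell, all of them receptor chains. Il2rb, the chain shared by the IL-2 and IL-15 receptors, went from 7.08, 6.82 and 6.82 to 5.76, 6.20 and 5.42 and fell by 1.11 (SE 0.29, adjusted p = 0.0128), and Il4ra, of the IL-4 receptor, by 1.49 (SE 0.30, adjusted p = 0.00382). Il15, the cytokine that sustains CD8+ T cells, measured 7.08, 7.46 and 7.89 and 7.64, 7.25 and 7.40, with overlapping groups, and differed by -0.05 (SE 0.24, adjusted p = 0.908), and its presenting receptor Il15ra by -0.48 (SE 0.23, adjusted p = 0.151). Jak1 itself measured 10.58, 10.68 and 10.33 and 10.44, 10.69 and 10.65 and differed by 0.06 (SE 0.15, adjusted p = 0.799), and Jak3 by -0.33 (SE 0.14, adjusted p = 0.119). The kinase Jak2 fell by 0.46 (SE 0.15, adjusted p = 0.0412). Among the STAT factors themselves, Stat4, which relays IL-12 signals in T cells, fell by 0.87 (SE 0.22, adjusted p = 0.0108), while Stat5b, which relays IL-2 family and growth hormone signals, rose by 0.55 (SE 0.17, adjusted p = 0.0317), so that the list of 10 JAK and STAT genes held 3 falls, with Stat2, and 1 rise. The feedback inhibitors Socs1 and Cish, which STAT proteins induce, differed by -0.79 (SE 0.32, adjusted p = 0.0925) and -0.40 (SE 0.21, adjusted p = 0.187). With 1 array left out, the call was lost for Il2rb (without 0-week replicate 1 or 12-week replicate 3, adjusted p up to 0.0647), Jak2 (without 0-week replicate 1 or 3 or 12-week replicate 1 or 2 or 3, adjusted p up to 0.187), Stat4 (without 12-week replicate 1, adjusted p = 0.0589) and Stat5b (without any 1 array, adjusted p up to 0.0894). The count of receptor chains was 2 without 12-week replicate 1 or 3 or with the hair covariate and 1 without 0-week replicate 1, and that of JAK and STAT falls 1 without 12-week replicate 1 and 0 with the hair covariate.

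Myeloid genes did not move as 1 group. In the list of dendritic and Langerhans cells, 3 rose and 4 fell. Cd209a, a lectin of dermal dendritic cells, went from 5.94, 5.81 and 5.70 to 7.92, 7.92 and 7.82 (2.07, SE 0.46, adjusted p = 0.00603), and Cd207, the lectin langerin of Langerhans cells, rose by 1.07 (SE 0.36, adjusted p = 0.0454). Itgax, the integrin CD11c, and Cd40, a costimulatory receptor, fell by 1.34 (SE 0.41, adjusted p = 0.0312) and 1.24 (SE 0.37, adjusted p = 0.0272). Among 18 macrophage genes 2 rose and 0 fell, beside the 9.76% of all genes that rose. The list median was -0.26, and 10 of the 18 were lower. The scavenger receptor Cd163 rose by 1.66 (SE 0.55, adjusted p = 0.0438). Msr1, Fcgr1 and Itgam, next in size, differed by -1.30, -1.24 and -1.05 without a call. The macrophage rises numbered 1 without 0-week replicate 3 or without 12-week replicate 2. They numbered 0 without 0-week replicate 1 or without 12-week replicate 1 or 3 or with the hair or muscle covariate. Centring or the replicate block also left 0 macrophage rises, and with only the 6 compared arrays in the fit 3 macrophage genes fell. Clec7a, the fungal β-glucan receptor dectin-1, was among the 15 largest falls, from 10.94, 9.82 and 11.24 to 7.70, 7.22 and 5.86 (-3.74, SE 0.77, adjusted p = 0.00456). Lcn2, a siderophore-binding protein of inflamed epithelium and neutrophils, was the single called member of 15 neutrophil and inflammatory genes and fell by 3.65 (SE 1.01, adjusted p = 0.0185), while 7 of the 15 fell in the fit of the 6 compared arrays alone. Single arrays decided the call of Cd207, Cd40 and Cd163 (without 0-week replicate 1 or 3 or 12-week replicate 1 or 2 or 3, adjusted p up to 0.175, 0.115 and 0.125), Itgax (without 0-week replicate 1 or 3 or 12-week replicate 2 or 3, adjusted p up to 0.113) and Lcn2 (without 0-week replicate 1 or 12-week replicate 3, adjusted p up to 0.0907). The rises of the dendritic cell list numbered 1 without 0-week replicate 3 or without 12-week replicate 1 or 2 or 3 or with the muscle covariate and 0 with the hair covariate, and its falls 2 without 0-week replicate 2 or 3 or without 12-week replicate 1, 1 without 12-week replicate 2 or 3 or with the muscle covariate and 0 without 0-week replicate 1 or with the hair covariate.

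Stress genes of the keratinocyte showed 8 falls among 13 and 0 rises (median -2.37). Krt6b, a keratin of wounded and hyperproliferative epidermis and of the follicle's companion layer, went from 13.27, 11.15 and 13.58 to 6.25, 8.22 and 8.55 and fell by 4.99 (SE 1.29, adjusted p = 0.0132), a 31.9-fold decrease. Replicate 2 was the lowest of the 0-week arrays and replicate 1 the lowest of the 12-week arrays, and the groups did not overlap. Krt16, its type I partner, fell by 3.15 (SE 0.87, adjusted p = 0.0184), the small proline-rich protein Sprr1b by 4.52 (SE 1.41, adjusted p = 0.032) and the protease inhibitor Stfa3 by 3.78 (SE 0.78, adjusted p = 0.00461). The antimicrobial Defb3, β-defensin 3, had a large difference without a call, at -1.82 (SE 1.06, adjusted p = 0.237). Leaving out 1 array ended the call of Krt6b (without 0-week replicate 1 or 12-week replicate 1, adjusted p up to 0.0731), Krt16 (without 0-week replicate 1 or 12-week replicate 1 or 3, adjusted p up to 0.0802) and Sprr1b (without any 1 array, adjusted p up to 0.136). The number of stress gene falls was 5 without 0-week replicate 2, 4 without 0-week replicate 3 or with the muscle covariate, 3 without 12-week replicate 3, 1 without 0-week replicate 1 or without 12-week replicate 1 and 0 with the hair covariate. The part of the follicle in these falls was not tested. In the list of epidermal differentiation, 3 of 19 fell, among them Flg, filaggrin (-1.06, SE 0.33, adjusted p = 0.0342), and the count was 1 without 12-week replicate 1 and 0 without 0-week replicate 1 or with the hair covariate. The call depended on 1 array for Flg (without 0-week replicate 1 or 3 or 12-week replicate 1 or 2, adjusted p up to 0.122).

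Mmp13, a collagenase, went from 9.99, 8.01 and 9.58 to 3.92, 4.76 and 4.66 and fell by 4.74 (SE 1.05, adjusted p = 0.00603). Timp1, an inhibitor of such proteases, fell by 2.90 (SE 0.90, adjusted p = 0.0317), and Mmp12, the macrophage elastase, had -3.09 (SE 1.16, adjusted p = 0.0701). Of 16 matrix protease genes 3 fell and 1 rose, the latter Timp2 (1.18, SE 0.32, adjusted p = 0.0169), which had a probe set of the opposite sign and was not called on the mean of its probe sets. None of 18 collagen genes was called. Aldh1a3, which makes retinoic acid, was among the largest falls, from 11.80, 10.24 and 10.73 to 5.38, 6.67 and 5.85 (-4.95, SE 0.84, adjusted p = 0.00188). Its call held without each of the 6 arrays in turn and with the hair covariate. Crabp2, which carries retinoic acid to its receptor, fell by 1.32 (SE 0.43, adjusted p = 0.0401), while Cyp26b1, which breaks retinoic acid down, rose by 1.65 (SE 0.47, adjusted p = 0.0217). With 1 array left out, the call was lost for Timp1 (without 0-week replicate 1 or 3 or 12-week replicate 1 or 2 or 3, adjusted p up to 0.124), Timp2 (without 0-week replicate 1 or 3 or 12-week replicate 1, adjusted p up to 0.0785), Crabp2 (without 0-week replicate 1 or 2 or 12-week replicate 1 or 3, adjusted p up to 0.142) and Cyp26b1 (without 0-week replicate 1 or 12-week replicate 1 or 3, adjusted p up to 0.108). The protease falls numbered 1 without 0-week replicate 3 or without 12-week replicate 2 and 0 with the hair covariate, and the 3 falls among 15 retinoid genes 1 without 12-week replicate 1 or 3 or with the hair or muscle covariate.

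The largest rises were in a group of secretoglobin, carboxylesterase and xenobiotic genes, of which 6 of 10 rose and 0 fell. This list was drawn up with the large rises of these arrays already known, so its direction is no independent evidence. Slc26a7, an anion transporter, went from 4.14, 3.71 and 4.59 to 9.83, 8.89 and 9.14 and rose by 5.14 (SE 1.11, adjusted p = 0.00536), a 35.3-fold increase. When every probe set was tested on its own, 1 of its 2 probe sets was called, and 0 had the opposite sign. Cyp2e1, a cytochrome P450 of fat and liver, went from 6.93, 8.08 and 7.37 to 12.58, 12.17 and 12.22 and rose by 4.86 (SE 0.95, adjusted p = 0.00358). Scgb1a1, a secretoglobin best known from airway epithelium, went from 5.25, 5.59 and 4.51 to 9.11, 9.35 and 9.17 and rose by 4.09 (SE 0.65, adjusted p = 0.00136). Ces1d, a carboxylesterase of fat cells, rose by 4.03 (SE 0.79, adjusted p = 0.00358). The groups lay far apart in all 4, with replicate 1 the highest of the 12-week arrays for Slc26a7. None of the 4 lost its call without 1 array, and with the hair covariate Cyp2e1, Scgb1a1 and Ces1d kept it. The list held 3 rises with the hair covariate.

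Further large rises were spread over several functions. Rbp4, the plasma carrier of retinol that fat cells also release, went from 5.80, 6.58 and 6.78 to 10.55, 9.35 and 9.62 and rose by 3.45 (SE 0.71, adjusted p = 0.00455). Cdo1, which breaks down cysteine, rose by 3.54 (SE 0.74, adjusted p = 0.0048), and the cytochrome P450 Cyp2f2 by 3.41 (SE 0.74, adjusted p = 0.00536). For Rbp4 and Cdo1, replicate 1 was the lowest of the 0-week arrays and the highest of the 12-week arrays. Ifitm6, of the interferon-induced transmembrane protein family, moved against the interferon lists, from 5.50, 6.05 and 6.49 to 9.27, 10.26 and 9.15 (a rise of 3.55, SE 0.76, adjusted p = 0.00523). Krt24, a keratin of differentiated keratinocytes, went from 6.61, 6.36 and 6.21 to 9.36, 9.28 and 10.08 and rose by 3.18 (SE 0.63, adjusted p = 0.00358). Il22ra2, the soluble receptor that binds IL-22, went from 6.22, 6.32 and 5.74 to 9.04, 9.88 and 8.89 and rose by 3.18 (SE 0.65, adjusted p = 0.00452). The groups did not overlap in these genes. No call among them was lost when 1 array was left out. With the hair covariate the call was kept by Ifitm6 and Krt24 among them.

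Fat cell genes showed 12 rises and 0 falls among 20 (median 1.56), against 9.76% of all genes that rose. Adipoq, the hormone adiponectin, went from 8.65, 8.92 and 9.76 to 13.37, 12.15 and 12.79 and rose by 3.66 (SE 0.79, adjusted p = 0.00536). Thrsp, which promotes fatty acid synthesis, went from 4.93, 7.26 and 5.62 to 11.64, 10.95 and 9.51 and rose by 4.76 (SE 1.06, adjusted p = 0.00615), while 1 of its other probe sets had the opposite sign. Lep, the hormone leptin, rose by 2.09 (SE 0.66, adjusted p = 0.0343) and Pparg, the master transcription factor of fat cells, by 2.07 (SE 0.56, adjusted p = 0.0166). Replicate 1 held the highest 12-week level of Adipoq and Thrsp. Of 16 sebaceous gland genes 6 rose and 1 fell, with the desaturase Scd1 going from 12.11, 13.25 and 12.65 to 14.22, 13.78 and 13.84 (1.28, SE 0.28, adjusted p = 0.00617) and the fatty acid hydroxylase Fa2h rising by 2.68 (SE 0.61, adjusted p = 0.00694). Leaving out 1 array ended the call of Lep (without 0-week replicate 1 or 2 or 12-week replicate 1 or 3, adjusted p up to 0.152) and Pparg (without 0-week replicate 1 or 12-week replicate 1, adjusted p up to 0.0926). The fat cell rises numbered 7 without 12-week replicate 3, 5 with the muscle covariate, 4 without 0-week replicate 1 or without 12-week replicate 1 and 0 with the hair covariate, and the sebaceous rises 3 without 0-week replicate 1 or with the muscle covariate, 2 without 12-week replicate 1 and 0 with the hair covariate.

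Stromal and vascular genes rose in smaller numbers. For the lists that follow, 9.76% of all genes rose and 6.5% fell. Of 20 endothelial genes 7 rose and 1 fell. Tek, the angiopoietin receptor Tie2, went from 5.61, 6.12 and 6.31 to 7.97, 7.82 and 7.59 and rose by 1.78 (SE 0.43, adjusted p = 0.00901), and the fatty acid transporter Cd36, also a fat cell and macrophage gene, rose by 2.13 (SE 0.64, adjusted p = 0.0285). Flt1, a receptor and decoy for VEGF, fell by 1.83 (SE 0.44, adjusted p = 0.00923). Of 12 fibroblast genes 4 rose, with the peptidase inhibitor Pi16 at 1.87 (SE 0.60, adjusted p = 0.0373). Of 10 mast cell genes 3 rose, all proteases of the granule: Cpa3 went from 7.10, 8.37 and 7.56 to 11.17, 10.10 and 10.93 (3.06, SE 0.81, adjusted p = 0.0147), and Cma1 and Mcpt4 rose by 2.58 (SE 0.78, adjusted p = 0.0281) and 2.45 (SE 0.73, adjusted p = 0.0264). Of 9 Schwann cell genes 4 rose, with the cadherin Cdh19 at 2.47 (SE 0.58, adjusted p = 0.00753), and 1 fell, Egr2, a transcription factor of myelination (-0.97, SE 0.32, adjusted p = 0.0441). The call depended on 1 array for Cd36 (without 0-week replicate 1 or 2 or 12-week replicate 1 or 3, adjusted p up to 0.123), Flt1 (without 0-week replicate 1, adjusted p = 0.0506), Pi16, Cma1 and Mcpt4 (without 0-week replicate 1 or 3 or 12-week replicate 1 or 3, adjusted p up to 0.135, 0.105 and 0.103), Cpa3 (without 0-week replicate 1 or 12-week replicate 1, adjusted p up to 0.0644), Cdh19 (without 12-week replicate 1, adjusted p = 0.0525) and Egr2 (without any 1 array, adjusted p up to 0.159). The endothelial rises numbered 3 without 0-week replicate 3, 2 without 0-week replicate 2 or without 12-week replicate 3, 1 without 0-week replicate 1 or without 12-week replicate 1 or with the muscle covariate and 0 with the hair covariate. The fibroblast rises numbered 1 without 0-week replicate 3 and 0 without 0-week replicate 1 or without 12-week replicate 1 or 3 or with the hair or muscle covariate, the mast cell rises 1 without 0-week replicate 3 or without 12-week replicate 3 and 0 without 0-week replicate 1 or without 12-week replicate 1 or with the hair or muscle covariate and the Schwann cell rises 2 without 0-week replicate 1 and 0 without 12-week replicate 1 or with the hair covariate.

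Genes of the follicle bulge and of follicle signals also rose in part. Krt15, a keratin of bulge stem cells and basal epidermis, went from 11.21, 12.75 and 11.14 to 13.53, 13.58 and 13.54 and rose by 1.85 (SE 0.37, adjusted p = 0.00382). Fgf18, a growth factor made in the bulge that holds the follicle in rest, went from 5.08, 5.07 and 5.21 to 8.37, 8.51 and 7.88 and rose by 3.13 (SE 0.69, adjusted p = 0.00585), a 8.76-fold increase. Neither gene's groups overlapped, and both belong to the 5 of 12 bulge genes that rose, while Lgr5, a marker of cycling follicle stem cells, differed by 0.29 (SE 0.40, adjusted p = 0.644). Grem1, a secreted BMP inhibitor, rose by 2.32 (SE 0.52, adjusted p = 0.0061) and Bmp2, a signal that also holds the follicle in rest, by 1.21 (SE 0.42, adjusted p = 0.049), in a list of 23 Wnt and BMP genes with 5 rises. Rspo3, a Wnt agonist of the dermal papilla, rose by 1.74 (SE 0.49, adjusted p = 0.0193), though its other probe set had the opposite sign. Wnt3 and Axin2, of the Wnt pathway, were also called higher, and their calls without 1 array are not given here. With 1 array left out, the call was lost for Bmp2 (without 0-week replicate 1 or 2 or 12-week replicate 1 or 2 or 3, adjusted p up to 0.243) and Rspo3 (without 0-week replicate 1 or 2 or 12-week replicate 1 or 3, adjusted p up to 0.0779). Among the genes given here with a difference, Krt15 and Grem1 kept the call with the hair covariate. The bulge rises numbered 3 without 12-week replicate 2 or 3, 2 without 0-week replicate 1 or without 12-week replicate 1 or with the muscle covariate and 1 with the hair covariate, and the Wnt and BMP rises 3 without 12-week replicate 3 or with the muscle covariate, 2 without 0-week replicate 1 or 2 or without 12-week replicate 1 and 1 with the hair covariate.

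Genes of the growing hair shaft were lower at 12 weeks, and whether they passed the test depended on the arrays that set the spread. Of 12 hair shaft keratins and 27 keratin-associated proteins, 0 were called, although their medians were -3.56 and -4.26, and all members of both lists had a negative sign. Krt31, a keratin of the hair cortex, measured 10.44, 9.02 and 11.87 at 0 weeks and 6.26, 7.60 and 6.47 at 12 weeks, with a difference of -3.66 (SE 1.45, adjusted p = 0.0848). Krtap15 measured 12.38, 10.45 and 13.28 and 6.64, 8.97 and 5.68, with a difference of -4.94 (SE 1.73, adjusted p = 0.0539). The groups did not overlap in these genes, but the arrays of 1 group spread over several log2 units. With only the 6 compared arrays in the fit, 9 of the 12 keratins, 24 of the 27 keratin-associated proteins and 7 of 13 inner root sheath genes fell, with an adjusted p of 0.0182 for Krt31 and 0.0194 for Krtap15. With dim genes left out 1 keratin and 5 keratin-associated proteins fell. Leaving out 0-week replicate 2 gave 1 call in each of both lists, and leaving out 12-week replicate 2 gave 1 keratin-associated protein. The inner root sheath genes Krt71 and Tchh, a keratin and trichohyalin, differed by -3.33 (SE 1.41, adjusted p = 0.106) and -2.47 (SE 1.22, adjusted p = 0.16). Hoxc13 and Foxn1, transcription factors of the hair matrix, differed by -0.99 (SE 0.73, adjusted p = 0.352) and -1.01 (SE 0.63, adjusted p = 0.266), while Elf5, an ETS factor of the list of 13 hair matrix regulators and its single call, went from 8.21, 8.38 and 8.45 to 5.51, 6.24 and 5.40 and fell by 2.63 (SE 0.81, adjusted p = 0.0307). Single arrays decided the call of Elf5 (without 0-week replicate 1 or 2 or 3 or 12-week replicate 1 or 3, adjusted p up to 0.0979), and with the hair covariate it differed by -1.26 (adjusted p = 0.307). Mki67, a marker of dividing cells, differed by -0.62 (SE 0.42, adjusted p = 0.311), with 0 called members among 24 cell cycle genes.

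The mean level of the hair shaft keratin list, relative to its mean over the 31 arrays, was 1.28, 0.25 and 2.48 at 0 weeks and -2.50, -0.96 and -1.93 at 12 weeks in replicates 1, 2 and 3. It therefore separated the 2 times along with the immune lists, and replicate 2 lay nearest to the other time in both groups. Over the same arrays the cytotoxic list stood at 0.99, 1.06 and 0.87 and -0.93, -0.36 and -1.01, and the fat cell list at -1.42, -0.88 and -0.98 and 1.41, 0.37 and 0.59. The replicate with the highest hair level at 0 weeks was not the one with the highest cytotoxic level. At 12 weeks replicate 2 was the highest in both lists. The 12-week array lowest in hair shaft keratins, replicate 1, was the highest in fat cell genes. The keratin-associated protein list was instead lowest in replicate 3, at -3.31 against -2.79 in replicate 1. The part of the hair cycle in these results was not tested, and the counts under the hair covariate are given with each list. Since the hair level separated the 2 times, those counts do not tell the hair level and the week apart.

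**Figure D3:**
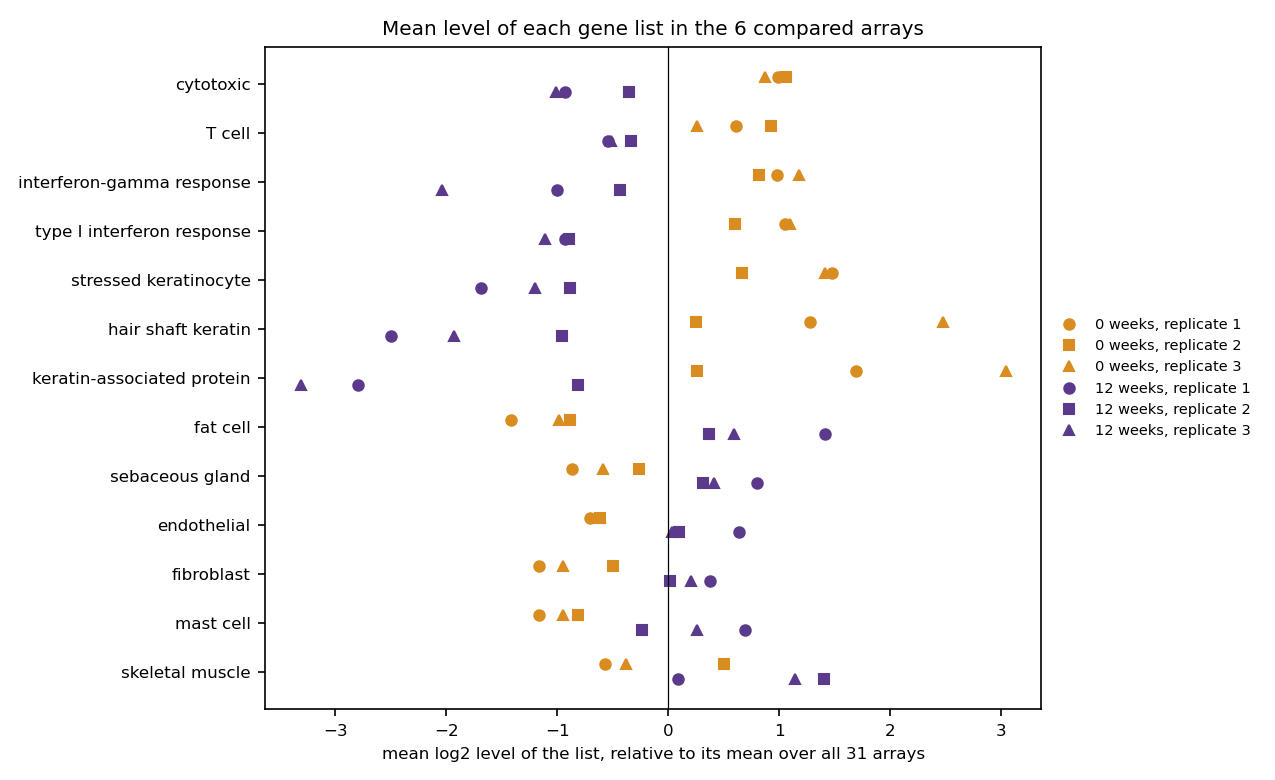
Mean log2 level of 13 gene lists in each of the 6 arrays, relative to the list's mean over all 31 arrays (horizontal axis), with 0 weeks in orange, 12 weeks in purple and the replicate shown by the marker. The times do not overlap in the lists above skeletal muscle, and the hair shaft and keratin-associated protein lists spread most within a time.

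Skeletal muscle genes, a sign of how deep a skin sample reaches, stood at a list mean of -0.57, 0.50 and -0.38 at 0 weeks and 0.09, 1.41 and 1.14 at 12 weeks, with overlapping groups. Of 22 muscle genes 1 rose, Myh2, a fast myosin heavy chain, which went from 8.75, 9.52 and 8.58 to 11.41, 11.94 and 12.24 (2.91, SE 0.69, adjusted p = 0.00844), and which with the hair covariate differed by 1.86 without a call (adjusted p = 0.104). Melanocyte and blood lists had 0 called members of 12 and 5. The B and plasma cell list had 1 call of 9, the secretory factor Xbp1 (0.33, SE 0.10, adjusted p = 0.0236), which had a probe set of the opposite sign and lost the call on the mean of its probe sets. Leaving out 1 array ended the call of Xbp1 (without 0-week replicate 2 or 3 or 12-week replicate 1 or 2, adjusted p up to 0.0968), and with the hair covariate its adjusted p was 0.202.

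The change in the jak1i arm was then set against the change over the same weeks in the PBS arm, in which 414 genes (2.28%) were called. The difference between both changes was called for 1247 genes (6.85%), 544 with a more positive change in jak1i (2.99%) and 703 with a more negative one (3.86%), and 4614 had an unadjusted p under 0.05. Gzmb measured 9.74, 10.29 and 10.36 at 0 weeks and 9.75, 8.55 and 10.77 at 12 weeks under PBS, a change of -0.44, so that the change in jak1i was -4.80 relative to it (SE 1.04, adjusted p = 0.014). Mx1 measured 8.14, 7.78 and 8.30 and 8.50, 7.66 and 9.10 under PBS, and its change in jak1i was -3.65 relative to PBS (SE 0.80, adjusted p = 0.0141). Both groups of PBS arrays overlapped for Gzmb, while under jak1i they did not. Krt6b had higher 12-week values under PBS, from 11.32, 11.61 and 10.76 to 12.61, 13.86 and 12.55, and the difference was -6.77 (SE 1.83, adjusted p = 0.0309). For Krt15 the difference was 2.47 (SE 0.52, adjusted p = 0.014). The calls of Gzmb, Mx1 and Krt15 held without each of the 12 arrays in turn, whereas Krt6b kept its call in 4 of those 12 fits, those without replicate 2 of jak1i at 0 weeks, replicate 3 of jak1i at 12 weeks or replicate 2 of PBS at either week (adjusted p up to 0.073 in the others). Of the type I interferon list, 19 of 25 members differed from PBS, of the cytotoxic list 9 of 20, and of the interferon-γ list 4 of 23, all more negative in jak1i. Cxcl9, at -4.25 (SE 1.52, adjusted p = 0.0841), was not among them.

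The largest positive differences from PBS lay in muscle genes, in which the PBS arm moved. Of 22 muscle genes 21 differed, with a median change of 0.91 in jak1i and -4.30 under PBS, where 21 fell. Ttn, the sarcomere protein titin, measured 12.74, 11.76 and 11.59 under PBS at 0 weeks and 5.19, 8.60 and 6.96 at 12 weeks, against 11.84, 12.13 and 10.87 and 12.09, 13.16 and 13.04 in jak1i. Its difference was 6.26 (SE 0.91, adjusted p = 0.00564). With the muscle covariate 0 genes differed between the arms, and with the hair covariate 63. The muscle list mean was -5.59, -2.78 and -4.19 in the PBS arrays of 12 weeks and -0.63 to 1.69 in all other arrays. The muscle covariate thus nearly marks 1 of the compared groups. That fit cannot tell the muscle level and the change under PBS apart. Without a covariate, the count of genes that differed was 777 and 482 without 0-week replicates 1 and 3 of jak1i, 747, 634 and 521 without 12-week replicates 1, 2 and 3 of jak1i, 346, 801 and 792 without 0-week replicates 1, 2 and 3 of PBS and 646, 1916 and 276 without 12-week replicates 1, 2 and 3 of PBS, and 1152 without 0-week replicate 2 of jak1i. Mast cell genes differed from PBS in 0 of 10, with a median change of 0.94 in jak1i and 0.89 under PBS. Fat cell genes differed in 2 of 20, endothelial genes in 0 of 20 and sebaceous genes in 4 of 16.

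**Figure D4:**
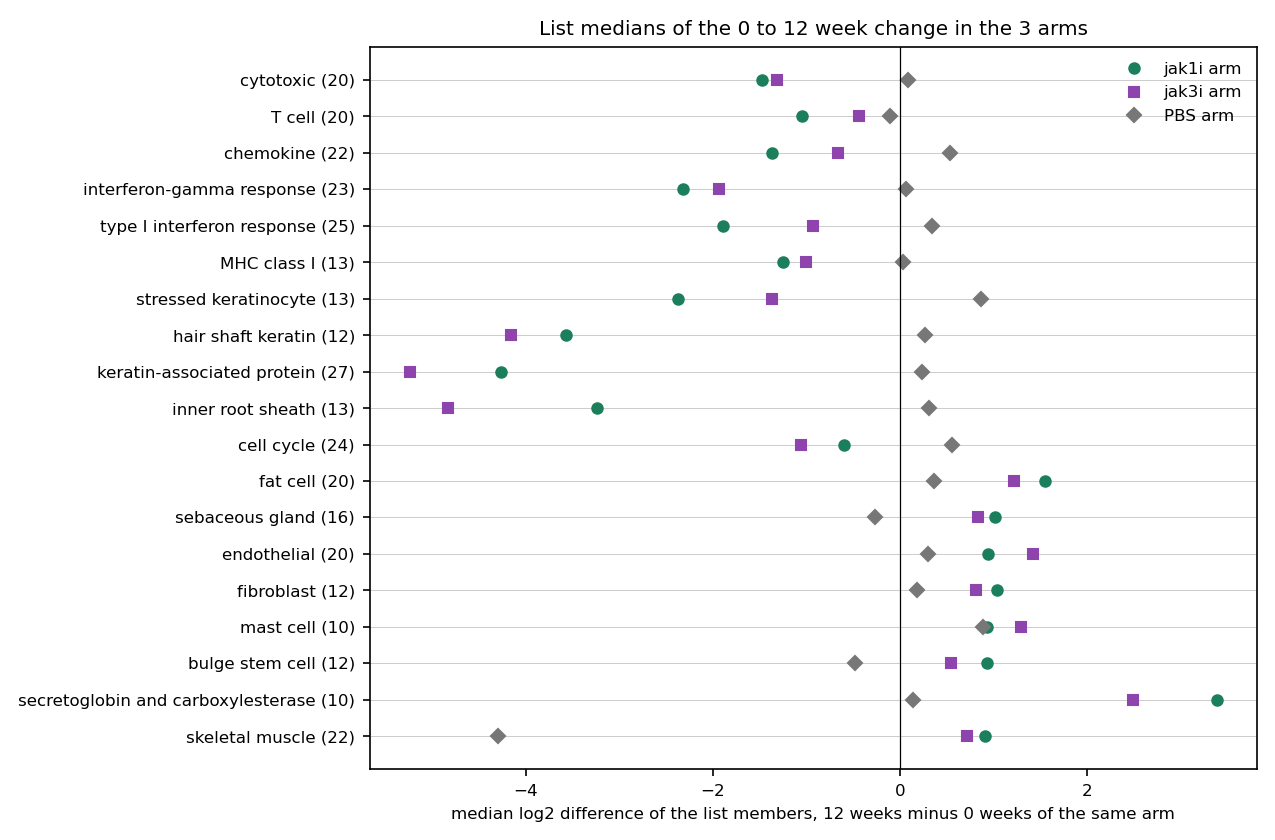
Median log2 difference between 12 and 0 weeks over the members of 19 gene lists (number in brackets) in the jak1i arm (circles), the jak3i arm (squares) and the PBS arm (diamonds), each against the 0-week arrays of its own arm. The immune lists lie left of 0 in both inhibitor arms and near or right of 0 under PBS, and the muscle list lies far left under PBS, at -4.30.

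Against the other inhibitor the same change was compared at matched weeks, with doses not given. In the jak3i arm 1867 genes (10.3%) were called from 0 to 12 weeks. The difference between both changes was called in 0 genes of 18193 (0%) by limma, with 858 at an unadjusted p under 0.05 and a smallest adjusted p of 0.998. Gzmb changed by -5.24 in jak1i and -4.03 in jak3i, a difference of -1.20 (95% interval -3.35 to 0.95). Mx1 changed by -3.31 and -1.43, a difference of -1.87 (95% interval -3.52 to -0.23), and Cd8a by -2.21 and -1.15, a difference of -1.07 (95% interval -1.93 to -0.21). For Krt6b the changes were -4.99 and -1.36, and the difference was -3.63 (95% interval -7.43 to 0.16). These intervals are wide and are not adjusted for the number of genes tested, so one that leaves out 0 is no call. The absence of calls does not show that the compounds act alike. List medians were -1.89 in jak1i and -0.92 in jak3i for the type I interferon list, and 0.94 and 1.43 for the endothelial list. The genes with the smallest p for the difference were Inha, a subunit of inhibin, at -0.84 (95% interval -1.25 to -0.43), Bdp1, a subunit of transcription factor TFIIIB, at 0.50 (95% interval 0.25 to 0.75), and Mpv17l2, a mitochondrial protein, at -0.52 (95% interval -0.78 to -0.26). They were picked by p from all genes, none was called for this difference, and their intervals are not adjusted for that choice.

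Within the jak1i arm 2250 genes (12.4%) were called at 6 weeks against the same 0-week arrays. List medians at 6 and 12 weeks, which share those arrays, were -2.11 and -1.89 for the type I interferon list and -1.61 and -1.47 for the cytotoxic list. They were -1.76 and -3.56 for the hair shaft keratins, and the bulge list held 1 rise at 6 weeks and 5 at 12 weeks. Between 6 and 12 weeks 0 genes (0%) were called by limma, with 1168 at an unadjusted p under 0.05 and a smallest adjusted p of 0.305. Gzmb measured 4.99, 4.75 and 4.91 at 6 weeks, and its difference between 12 and 6 weeks was 0.40 (95% interval -1.12 to 1.92). Cxcl9 measured 6.31, 10.31 and 8.20 at 6 weeks, with a difference of 0.42 (95% interval -1.80 to 2.64). Krt31 measured 6.23, 11.95 and 7.66, so the hair level of replicate 2 at 6 weeks was as high as at 0 weeks while the other 2 were low. Dlk1 and Fgfbp1 are given because their p between 6 and 12 weeks was among the 3 smallest of all genes. Neither was called for that difference, and their intervals are not adjusted for this choice. Dlk1, a membrane protein that restrains fat cell formation, measured 5.70, 5.59 and 5.40 at 0 weeks and 5.51, 5.63 and 5.39 at 6 weeks. At 12 weeks it measured 4.91, 5.13 and 5.08, with a difference of -0.47 (95% interval -0.68 to -0.26) from week 6. Fgfbp1, a carrier of fibroblast growth factors, measured 11.60, 11.60 and 11.32, 10.65, 10.25 and 10.67 and 11.22, 11.51 and 11.24 at those weeks, with a low point at 6 weeks and a difference of 0.80 (95% interval 0.45 to 1.15).

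At 24 weeks the 2 arrays of the arm disagreed. Gzmb measured 8.94 and 5.32, Cxcl9 12.08 and 8.32, Mx1 7.66 and 5.91 and Krt6b 13.57 and 6.97 in replicates 1 and 2, and Krt31 measured 9.85 and 5.99. Replicate 1 was thus between the 12-week and the 0-week arrays for Gzmb, Cxcl9 and Mx1, and at the 0-week level for Krt6b. Replicate 2 lay within or near the 12-week range for these genes. Between 12 and 24 weeks 0 genes (0%) were called by limma, with 610 at an unadjusted p under 0.05 and a smallest adjusted p of 0.333.

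**Figure D5:**
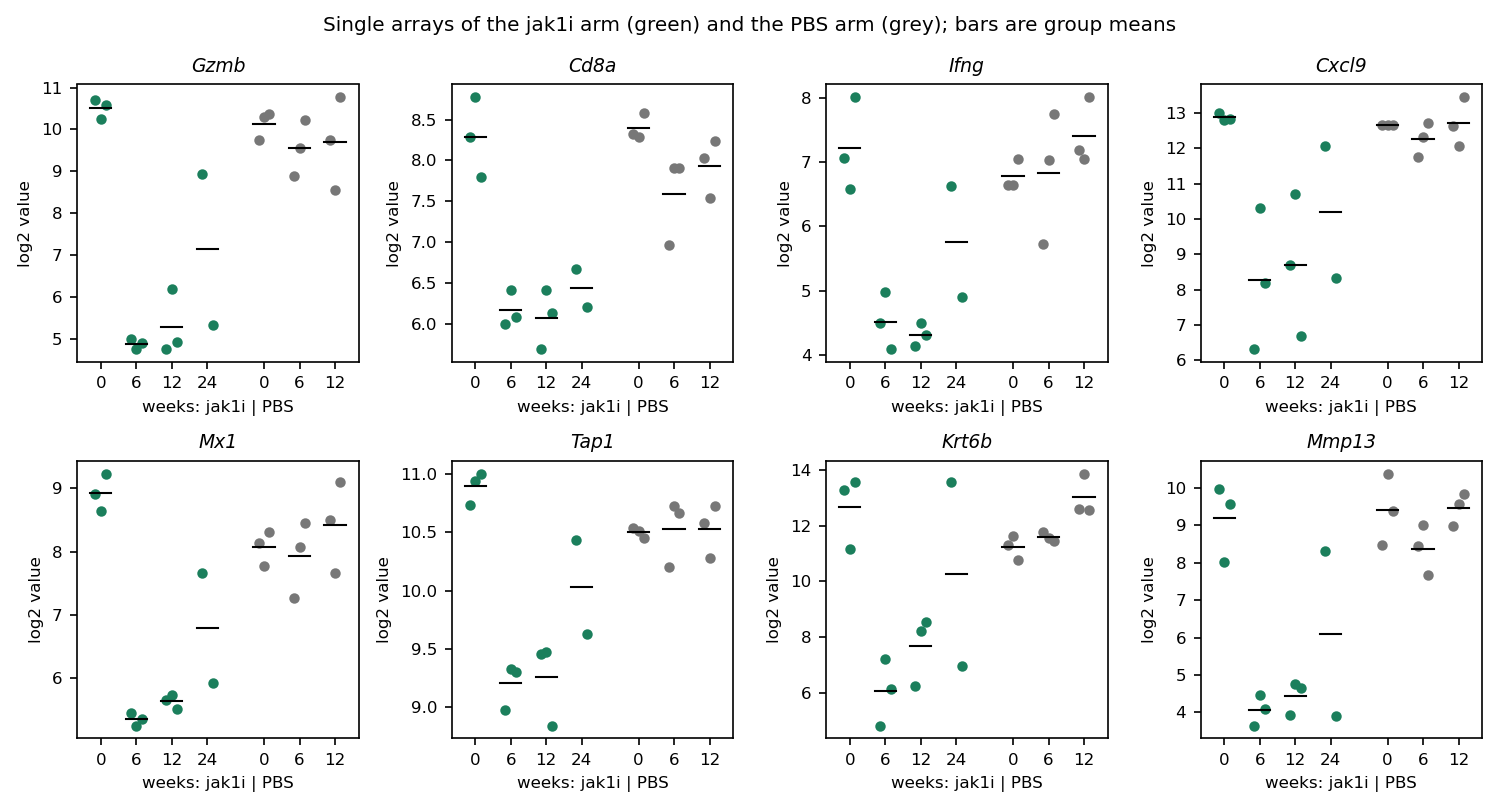
Log2 values of 8 genes in single arrays (points) with group means (bars), by week, in the jak1i arm (green, 3 arrays at 0, 6 and 12 weeks and 2 at 24 weeks) and in the PBS arm (grey, 3 arrays a week). The 12-week jak1i arrays lie below the 0-week arrays of the arm in all 8 genes, and replicate 1 of 24 weeks lies above replicate 2.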

How the data were processed

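Expression was measured in mouse skin on 31 Affymetrix arrays. Per the labels' protocols, RNA was extracted with the miRNeasy kit and a DNase step, and biotin targets came from a 3′ in vitro transcription kit of Affymetrix. The deposited values are log2 values of the authors. The submitters' processing notes name RMA, without a version in the sources used here, a method of background correction, quantile normalization and probe summary. The values ran from 2.59 to 14.69, and the array medians from 6.05 to 6.24. Arrays give no read depth, and the number of arrays limits the precision.

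Of 45101 probe sets, 64 were array controls, 34958 named 1 gene, 932 several and 9211 none in the platform annotation. Each gene was read from its brightest probe set on average over the arrays, which left 18193 genes. A further 10092 probe sets, those without a single gene name and not array controls, entered only the fit of single probe sets, where 526 were called higher and 309 lower. The dimmer probe sets of the 9010 genes with several entered only that fit and the mean of a gene's probe sets. Groups came from the arm and week in the labels. limma 3.58.1 in R 4.3.3 fitted 11 group means to all arrays (20 residual degrees of freedom and 2.50 from the prior), and Benjamini-Hochberg adjustment ran over all genes at a threshold of 0.05. The method was tested on simulated data.

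The genes named were drawn mainly from these sets: the 15 largest called rises and falls without overlap, skipping unnamed gene models, the 4 largest differences and any call of each gene list, a list of key genes, and the leading genes of the other comparisons (5 each way, or the 3 smallest p). Not every gene of these sets is named, and some further list members without a call are named beside them. The members and lists were chosen with earlier results of these data known. Same-numbered arrays of 0 and 12 weeks did not deviate together (correlations of -0.05, 0.05 and 0.09), so the numbers were not taken to pair samples. The alternatives changed the scaling, the filter on dim genes, the choice of probe set, the variance model, the arrays fitted, the replicate block and the covariates, and left out each array in turn. No batch of scanning was tested, since scan dates were not used here. None of the 31 arrays is from PBS at 24 weeks.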

Additional observations from a re-analysis of the deposited data

Results flagged for a closer look

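The values here are the change from 0 to 12 weeks in the jak1i arm minus the change over the same weeks in the PBS arm, on the log2 scale, singled out because limma called the difference between the arms itself. It was called for 1247 genes. The comparison has 3 arrays in each of 4 groups, and the rule for named genes gave 25 of these genes.

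Genes of cytotoxic lymphocytes and T cells had a more negative change in jak1i, with Gzmb at -4.80, Gzma at -4.14, Ccl5 at -3.57, Ifng at -3.54, Cxcr6 at -2.02, Klrk1 at -1.90, Fasl at -1.81, Cd8a at -1.75 and Cd3d at -1.26. Of the interferon-induced genes, Cxcl11 differed by -4.79, Mx1 by -3.65, Irf1 by -1.93 and Tap1 by -1.67. Keratinocyte genes had the largest negative differences, with Krt6b at -6.77, Sprr1b at -6.72, Stfa3 at -5.42, Sprr2d, a small proline-rich protein, at -5.10 and Klk13, a kallikrein protease, at -4.85. The desaturase Scd1, at 1.55, and Krt15, at 2.47, were more positive in jak1i.

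Muscle genes had the largest positive differences, with Myh2 at 7.68, Neb, the thin filament protein nebulin, at 6.43, Myot, the Z-disc protein myotilin, at 6.42, Ttn at 6.26 and Klhl41, a muscle kelch protein, at 5.97. In these genes the PBS arrays of 12 weeks were low, and the part of the depth of the skin sample was not tested.

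Without each of the 12 arrays in turn, 10 of the 25 calls held, those of Stfa3, Gzmb, Mx1, Ccl5, Krt15 and the 5 muscle genes. Sprr1b was called in 0 of the 12 fits, and Sprr2d and Fasl in 2 each. With the hair covariate the 5 muscle genes and Ccl5 were called, and with the muscle covariate no gene was. The muscle covariate nearly marks the PBS arrays of 12 weeks. That fit cannot tell the muscle level and the change under PBS apart.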

How the results depend on the processing

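The 2958 called genes became 5332 calls when every probe set was tested on its own, 539 genes with the hair covariate and 1501 with the muscle covariate, and 1168 to 2196 genes without 1 array. They stayed within 1.5 times under centring (2724), without dim genes (3066), with the mean of a gene's probe sets (2623), with a trended and robust variance (2936), with the 6 compared arrays alone (3082), with the replicate block (2273) and with a random block (2634). The 1247 genes that differed from PBS became 2000 calls over every probe set, 2239 genes in a fit of the compared arrays alone, 632 with the replicate block, 63 with the hair covariate and 0 with the muscle covariate, and 276 to 1916 without 1 array. The muscle covariate nearly marks the PBS arrays of 12 weeks, so its count cannot tell the muscle level and the change under PBS apart. No setting gave a gene that differed from jak3i. Between 6 and 12 weeks the count was 0 to 1 without 1 array. The hair level separated the 2 compared times of the jak1i arm, so calls kept or lost with the hair covariate do not tell both apart. The causes were not tested.

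Of the 121 genes with a difference in the text, 97 were called, 53 of these without each of the 6 arrays in turn, and 33 of these also with the hair covariate. The replicate block, for numbers not shown to pair samples, ended 8 calls, the mean of probe sets 7, centring 3 and the muscle covariate 29. Signs turned in genes without a call. With the hair covariate Foxn1 had 0.39, Foxp3 0.0065, Hoxc13 0.70, Jak1 -0.16, Krt31 0.012, Krt71 0.094, Mki67 0.26 and Tchh 0.23, and with the mean of probe sets Jak1 had -0.025. Krt31 belongs to the hair shaft keratin list from which that covariate was made, so its small value was built into the fit. Without 1 array, Eomes ranged from -0.11 to 0.061, Foxp3 from -0.18 to 0.0026, Il15 from -0.25 to 0.16 and Jak1 from -0.039 to 0.14. In the fit of the compared arrays alone, sebaceous rises numbered 12, endothelial rises 15, fibroblast rises 8, mast cell rises 5, retinoid rises 4, epidermal differentiation falls 6, inflammatory myeloid falls 7, macrophage and MHC class II falls 3 each and collagen falls 1.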

Other observations

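Clock-controlled genes were uneven between the 12-week arrays. The mean level of 15 circadian output genes, relative to its mean over the 31 arrays, was -0.10, 0.01 and -0.21 at 0 weeks and 0.71, 0.09 and 0.09 at 12 weeks in replicates 1, 2 and 3. Per2, a repressor of the clock, measured 6.69, 6.54 and 6.64 at 0 weeks and 9.19, 6.52 and 6.65 at 12 weeks, so that replicate 1 alone stood high. Dbp, a transcription factor driven by the clock, measured 9.58, 9.74 and 9.85 and 11.77, 9.63 and 10.24. The list held 1 called gene, Clock itself, which rose by 0.53 (adjusted p = 0.0127 by limma over all genes), and whose call was lost without 12-week replicate 3 or with the hair covariate. The immediate early gene Fos, which responds within minutes to stimulation or handling, measured 11.50, 11.79 and 10.69 and 13.56, 12.24 and 13.22, a difference of 1.68 (SE 0.59, adjusted p = 0.0541). The same array, replicate 1 of 12 weeks, thus held the highest level of Per2, Dbp and Fos, and it is also the array whose removal lowered the number of called genes most.

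In the basal layer, Col17a1, the hemidesmosomal collagen XVII that also anchors hair follicle stem cells, went from 11.65, 12.09 and 11.64 to 12.66, 12.61 and 12.61 and rose by 0.84 (SE 0.26, adjusted p = 0.0298). The epithelial cadherin Cdh1 went from 12.96, 12.72 and 12.80 to 12.31, 12.57 and 12.52 and fell by 0.36 (adjusted p = 0.0285). They were the called members among 8 genes of the basal epidermis, and the list held 0 calls without 0-week replicate 1 or 3, without 12-week replicate 1 or 3 and with the hair or muscle covariate.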
